A study of Mus musculus with 2 samples.

Results

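The cells described here were 379 leukocyte-like cells among 23032 lung cells of young mice, chosen by their own transcripts after a sort that was meant to leave leukocytes out. A cell was chosen when at least 3 of the 5 leukocyte genes *Ptprc*, *Coro1a*, *Laptm5*, *Cd52* and *Tyrobp* had at least 1 unique molecular identifier (UMI, the tag that marks each captured RNA molecule), and when it had 200 to 6000 detected genes and at most 10% of its UMIs from mitochondrial genes. The values of those 5 genes therefore describe the choice and are not a finding.

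The libraries came from 1 control mouse and 1 *Gli1 HHIPCKO* mouse, both of the genotype *Gli1 creER/+*: *Hhip flox/flox* and both taken at postnatal day 14. The *Gli1 HHIPCKO* mouse received tamoxifen on each of 3 days from birth, which lets Cre delete the floxed gene *Hhip*, encoding a protein that binds and limits Hedgehog ligands, in cells that express *Gli1*, a Hedgehog target gene of stromal cells. The control mouse carried the same alleles and received the oil carrier on the same days. Live CD45-/CD31- cells were sorted as stromal (CD326-) and epithelial (CD326+) fractions, combined at 3 to 1 and captured as droplets on the 10x platform.

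CD45, the protein encoded by *Ptprc*, is carried by nearly all leukocytes, so cells that pass a CD45- sort and still hold leukocyte transcripts are those that the gate let through. B cells develop in steps: the recombinase RAG joins the segments of the immunoglobulin heavy chain gene, the heavy chain is then tested with a surrogate light chain, and after a burst of division a kappa or lambda light chain is made and MHC class II and surface receptors of the mature cell follow. Mast cells and basophils share the high-affinity IgE receptor and make histamine, and basophils are known as sources of interleukin 4 and interleukin 13 in the lung.

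The cell calls held 10999 control cells and 12350 *Gli1 HHIPCKO* cells, of which 10917 and 12115 passed the filter. The called cells of the control library held 43291709 UMIs and those of the *Gli1 HHIPCKO* library 52338969. The chosen cells were somewhat shallower than the rest: their median was 2463.5 UMIs per cell in the control (range 538 to 19723) and 2264 in *Gli1 HHIPCKO* (range 841 to 24371), against 3559 and 3791 in the other cells. Their median share of mitochondrial UMIs was 0.440% and 0.772%, against 0.589% and 0.759% in the other cells. The libraries shared 193 cell barcodes, carried by 6 control and 2 *Gli1 HHIPCKO* cells of the chosen set, and no barcode was chosen in both libraries.

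With 1 mouse per group there was no replicate against which to check any difference, so values are given with exact 95% intervals (Clopper-Pearson for shares, conditional binomial for ratios, Poisson for levels) that cover counting error only. The mice also differed in sex-linked RNA. *Xist*, the RNA that silences an X chromosome in females, had 103 UMIs in 45 of the 107 chosen *Gli1 HHIPCKO* cells and 0 in the 272 control cells, which makes it at least 90.3-fold higher against a floor of 3 counts. *Eif2s3y*, a Y-linked translation factor gene, had 70 UMIs in the control cells and 0 in *Gli1 HHIPCKO* cells, at least 8.88-fold lower on the same floor. Sex, mouse, library, tamoxifen itself and *Hhip* deletion cannot be told apart in anything that follows.

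The leukocyte label was borne out by genes that the choice did not use. Of the 379 cells, 337 (88.9%) had at least 3 of 12 other leukocyte genes, 239 of 272 in the control and 98 of 107 in *Gli1 HHIPCKO*. The same was true of 0.677% and 1.04% of epithelial comparison cells and of 0.776% and 0.390% of mesenchymal comparison cells. Epithelial comparison cells had epithelial and hardly any mesenchymal markers, and mesenchymal ones the reverse. Both were taken from outside the chosen set, which lowers their share of leukocyte genes. *Rac2*, a small GTPase of blood cells, was found in 89.0% and 86.0% of the chosen cells, against 2.99% and 1.22% of all other cells of the same library. Genes ranked by fold in these same cells only describe them. Among the genes with the largest fold over the other cells, outside the 5 used, were *Alox5ap*, which activates leukotriene synthesis (491-fold), *Fcer1g*, the shared signalling chain of Fc receptors (178-fold), *Cd53*, a leukocyte tetraspanin (131-fold), *Selplg*, the ligand that lets leukocytes roll on selectins (128-fold), *Spi1*, a transcription factor of myeloid and B cells (79.7-fold), and *Il7r*, the interleukin 7 receptor that early lymphoid cells depend on (59.5-fold).

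The 5 genes that chose the cells were found unevenly among them. *Coro1a*, an actin regulator of leukocytes, was found in 94.7% of the 379 cells and 1.69% of the others. *Laptm5*, a lysosomal protein gene, was found in 89.7% against 1.24%, and *Cd52*, a small surface glycoprotein gene, in 74.7% against 0.437%. *Tyrobp*, the adaptor of activating myeloid receptors, was found in 42.7% against 0.362%. *Ptprc* itself, the gene of the protein the sort was set against, was found in 43.0% against 0.212%, with a share of 37.5% in the control library and 57.0% in the *Gli1 HHIPCKO* one. On GRCm38 (GENCODE vM21) *Ptprc* lies on chromosome 1 from 138062861 to 138175708, *Coro1a* on chromosome 7 from 126699773 to 126707787, *Tyrobp* on chromosome 7 from 30413760 to 30417585, *Laptm5* on chromosome 4 from 130913125 to 130936141 and *Cd52* on chromosome 4 from 134082448 to 134095082.

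The requirement of 3 genes left cells of the same kind on both sides of it. Just inside, 231 cells had exactly 3 of the 5 genes, and 180 of them (77.9%) had at least 3 of 12 B cell genes. Just outside, 315 cells had exactly 2, and 263 of them (83.5%) had at least 3 B cell genes and 247 (78.4%) at least 3 of the other leukocyte genes. The choice thus holds 249 of the 663 filtered cells with at least 3 B cell genes (37.6%), but 64 of the 65 with at least 3 mast cell and basophil genes. B cells are under-represented by it, and the counts of B-like cells below are those of cells that passed.

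Residual leukocytes were a smaller part of the CD45-/CD31- sorted cells of the *Gli1 HHIPCKO* mouse. They were 272 of 10917 filtered cells in the control, 2.49% (interval 2.21 to 2.80), and 107 of 12115 in *Gli1 HHIPCKO*, 0.883% (0.724 to 1.07). The log2 ratio of the shares was −1.50 (−1.83 to −1.17), a share 2.82-fold lower. The ratio was −0.89 when *Ptprc* had to be among the genes found. The share measures what came through the gate together with the size of the sorted fractions, and its relation to the number of leukocytes in the lung was not tested.

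Clustering of the 379 cells gave 12 clusters, of which 6 were B-like and 1 was mast/basophil-like by fixed marker lists. A cluster was named where at least 50% of its cells had at least 3 genes of 1 leukocyte list and at most 20% had at least 3 genes of epithelium, mesenchyme or endothelium, limits that were set after the clusters had been seen. The other 5 clusters were left unnamed and held 76 control cells (27.9%) and 35 *Gli1 HHIPCKO* cells (32.7%). No doublet caller was run, so droplets with RNA of more than 1 cell type were kept and are described with the unnamed clusters.

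B-like cells made up most of the named cells in both libraries under the choice used here. They were 138 of the 272 control cells (50.7%, interval 44.6 to 56.8) and 62 of the 107 *Gli1 HHIPCKO* cells (57.9%, 48.0 to 67.4). With 4 of the 5 genes required they were 31.1% of the control cells, below the 38.7% of mast/basophil-like cells. As a share of all filtered cells they were 1.26% and 0.512%, a log2 ratio of −1.30 (−1.76 to −0.86). A count that uses no cluster and no leukocyte gene of the choice, cells with at least 3 B cell genes among all filtered cells, was 458 (4.20%) and 205 (1.69%), a log2 ratio of −1.31 (−1.55 to −1.07).

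Mast/basophil-like cells were also a smaller share of the cells of the *Gli1 HHIPCKO* mouse. They were 58 control cells (21.3% of the chosen cells, interval 16.6 to 26.7) and 10 *Gli1 HHIPCKO* cells (9.35%, 4.57 to 16.5). The control share depended on the choice: 12.2% with 2 of the 5 genes required, 38.7% with 4 and 10.8% with *Ptprc* required, and with cells thinned to 1000 UMIs no cluster was named so. As shares of all filtered cells these were 0.531% and 0.0825%, a log2 ratio of −2.69 (−3.82 to −1.71), or 6.44-fold lower. Counted by their genes alone, cells with at least 3 mast cell and basophil genes were 53 and 12 of all filtered cells, 4.90-fold lower in share. Assigning each cell to the list with most of its genes gave 40 and 6 mast/basophil-like cells of the chosen set.

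Other leukocytes were few among the chosen cells. At least 3 T cell genes were found in 4 control and 6 *Gli1 HHIPCKO* cells (1.47% and 5.61% of the chosen cells), at least 3 interstitial macrophage genes in 7 and 4, alveolar macrophage genes in 2 and 1 and classical monocyte genes in 3 and 1. At least 3 dendritic cell genes were found in 0 and 1 cells and group 2 innate lymphoid genes in 1 and 0. No chosen cell had 3 natural killer or 3 neutrophil genes, with exact intervals that reach up to 1.35% of the chosen cells in the control and 3.39% in *Gli1 HHIPCKO*. Among all filtered cells, chosen or not, at least 3 interstitial macrophage genes were found in 24 control and 22 *Gli1 HHIPCKO* cells (log2 ratio of the shares −0.28, −1.18 to 0.62), so most of these lay outside the choice. The plasma cell gene *Jchain*, which joins secreted IgM and IgA, had 0 UMIs. *Mzb1*, the 1 gene of the plasma cell list with at least 50 UMIs, was found in 45.2% and 45.8% of the chosen cells. Its shares of B-like cells were 68.1% and 62.9%.

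**Figure D1:**
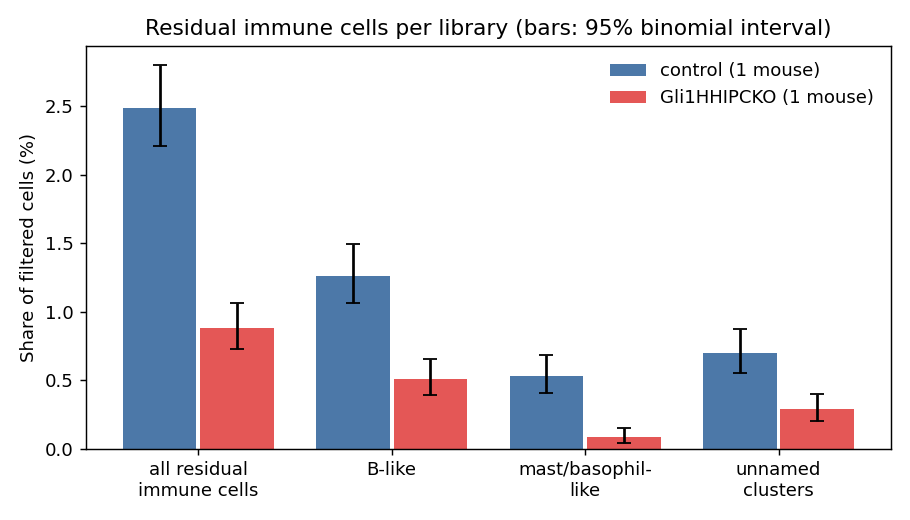
Share of filtered cells (%, vertical axis) that were residual immune cells, B-like, mast/basophil-like or in unnamed clusters, in the control and *Gli1 HHIPCKO* libraries. Bars are shares and lines their exact 95% binomial intervals, and the control bar is the higher one in each group, from 2.49% against 0.883% for all chosen cells to 0.531% against 0.0825% for mast/basophil-like cells.

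The B-like clusters can be laid out by the step of development that their leading genes belong to. These genes describe the clusters that they helped to form, and folds are of counts per 1000000 UMIs (CPM) over all other chosen cells. Genes of B cell development outside the fixed lists were chosen after their values had been seen.

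Cluster 10 (13 control and 6 *Gli1 HHIPCKO* cells) had the genes of the earliest step. *Dntt*, the enzyme that adds nucleotides at the joints of heavy chain segments, was found in 89.5% of its cells and was 95.5-fold above the other chosen cells. *Vpreb1*, a surrogate light chain gene, was found in all 19 of its cells (43.1-fold) and its relative *Vpreb2* was 46.7-fold higher, while *Erg*, a transcription factor of early blood progenitors, was 45.1-fold higher. The heavy chain gene *Ighm* was found in 18 of the 19 cells and no light chain in any of them. *Dntt* lies on chromosome 19 from 41029275 to 41059525, and *Vpreb1* on chromosome 16 from 16868403 to 16870843.

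Clusters 7 (17 and 6 cells) and 9 (17 and 4 cells) were in division by their genes. All 23 and all 21 of their cells had at least 3 of 14 cell cycle genes. Cluster 7 was led by genes of DNA synthesis and repair, among them *Ung*, which removes uracil from DNA (16.5-fold), *Timeless*, a replication fork protein gene (14.2-fold), and *Mcm5*, a subunit of the replicative helicase (8.77-fold). Cluster 9 was led by replication-dependent histone genes, whose near-identical copies share reads and make the single gene uncertain, and by *Foxm1*, a transcription factor of mitotic genes (26.1-fold). Their median depth was 3755 and 5684 UMIs per cell, the highest of the B-like clusters.

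Cluster 1 (58 and 22 cells), the largest, had genes of light chain rearrangement. *Rag1*, the catalytic subunit of the recombinase, was found in 35.0% of its cells (11.5-fold), and *Il2ra*, the interleukin 2 receptor alpha chain that small pre-B cells carry in mice, in 20 of its 80 cells (16.1-fold). *Arl5c*, a small GTPase gene, was found in 91.2% of its cells (9.59-fold), and *Reln*, an extracellular glycoprotein gene best known from the brain, led by fold (35.8-fold). In all B-like cells *Rag1* or *Rag2* was found in 48 of 200, which was 26.8% in the control and 17.7% in *Gli1 HHIPCKO*. *Rag1* and *Rag2* lie side by side on chromosome 2, *Rag1* from 101638282 to 101649501 and *Rag2* from 101624718 to 101632529.

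Clusters 3 and 11 had the genes of the later, surface receptor stage. Cluster 3 (29 and 17 cells) was led by *Ms4a1*, which encodes CD20, found in 82.6% of its cells (42.9-fold), *Fcmr*, the IgM Fc receptor gene (31.6-fold), and *Cd22*, an inhibitory receptor gene (21.7-fold). Cluster 11 was the smallest and the only B-like cluster with more *Gli1 HHIPCKO* than control cells, 7 against 4. It had *Fcer2a*, the low-affinity IgE receptor of mature B cells, at 10 UMIs against 0 in all other chosen cells (at least 240-fold higher), *H2-DMb2*, which helps to load MHC class II (78.5-fold), and *Ighd*, the IgD heavy chain gene (36.0-fold). With 1 library per group, a cluster held mostly by 1 library may be that library.

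**Figure D2:**
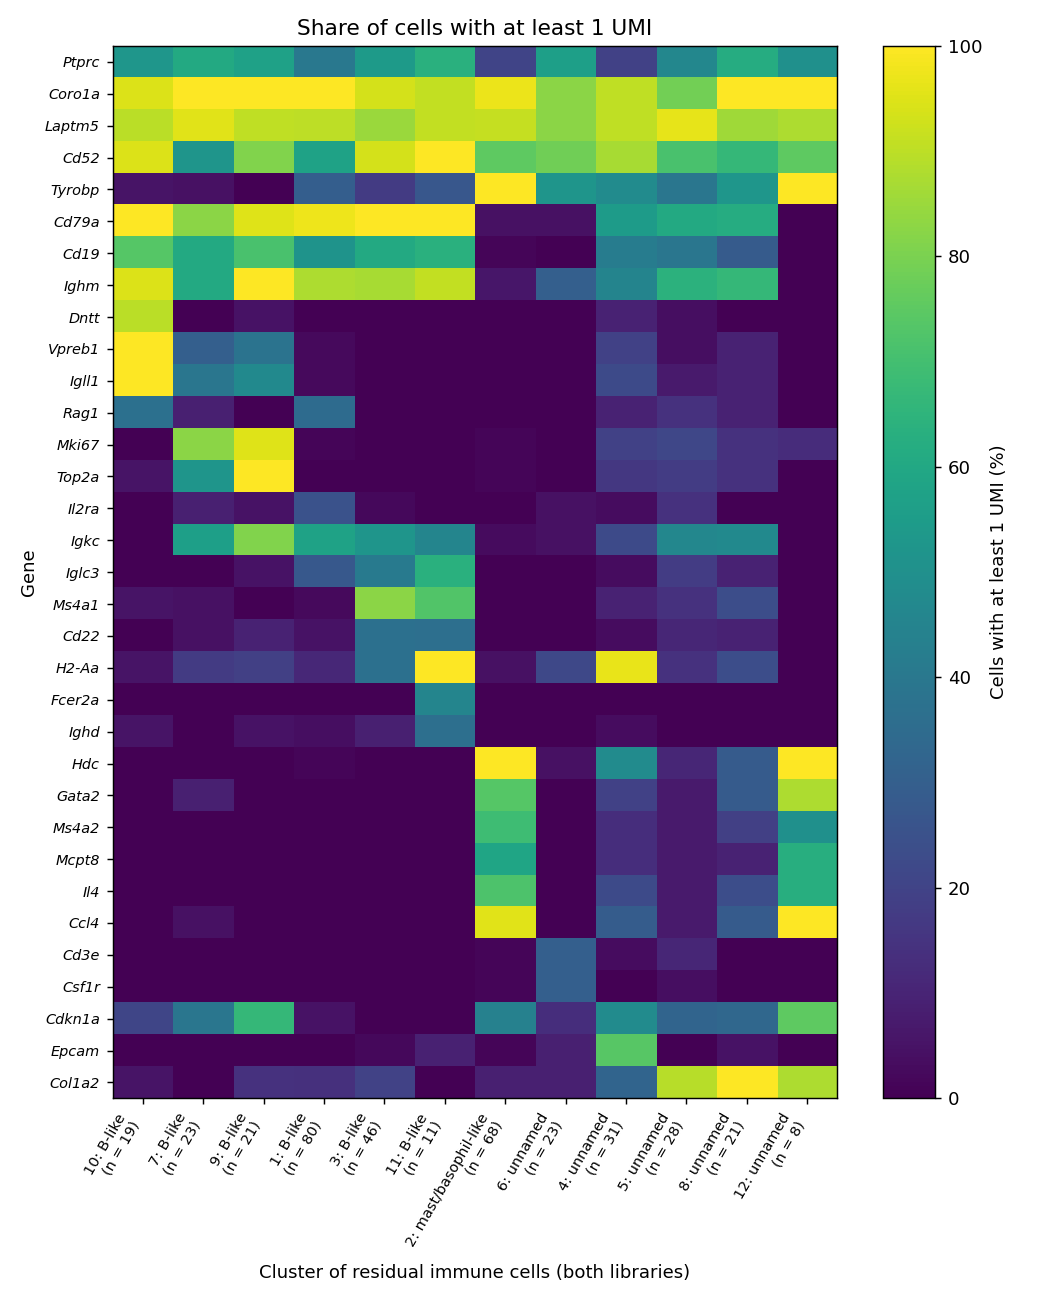
Percent of cells with at least 1 UMI (colour scale) of each gene (vertical axis) in each of the 12 clusters of both libraries (horizontal axis), with B-like clusters ordered from early to late genes. *Dntt* was found in 89.5% of cluster 10, *Ms4a1* in 82.6% of cluster 3 and *Il4* in 72.1% of cluster 2.

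Lambda transcripts followed the same order, and kappa did not. *Iglc1* and *Iglc2* were among the leading genes of clusters 3 and 11, so the lambda order partly restates how the clusters were formed. A kappa or lambda constant gene was found in 0 of 19 cells of cluster 10, in 13 of 23 of cluster 7, 17 of 21 of cluster 9, 64 of 80 of cluster 1, 43 of 46 of cluster 3 and 11 of 11 of cluster 11. Kappa came without lambda in the dividing clusters: a lambda gene was found in 0 of 23 and 1 of 21 of their cells, but in 29 of 80, 33 of 46 and 10 of 11 cells of clusters 1, 3 and 11. *Igkc*, the kappa constant gene, was found in 0 of 19, 13 of 23, 17 of 21, 46 of 80, 24 of 46 and 5 of 11 cells of clusters 10, 7, 9, 1, 3 and 11, so its share was highest in cluster 9. It was found in 2 of the 68 mast/basophil-like cells, which should lack it, at a median of 2225 UMIs per cell. Of all B-like cells, 43 of 200 (21.5%) had *Ighm* and no light chain transcript, 23.2% in the control and 17.7% in *Gli1 HHIPCKO*, and at this depth a missing transcript does not show that the gene was silent.

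Kappa RNA was lower by less than 2-fold, and some lambda RNA higher, in the *Gli1 HHIPCKO* mouse. *Igkc* was lower in *Gli1 HHIPCKO* B-like cells, 452.5 against 715 CPM, a log2 ratio of −0.66 (−1.05 to −0.28), which was −0.18 in the set that needs 2 of the 5 genes. Its share of cells was 52.2% in the control and 53.2% in *Gli1 HHIPCKO*. Any of the lambda constant genes *Iglc1*, *Iglc2* and *Iglc3* was found in 31.2% of control cells (interval 23.6 to 39.6) and 48.4% of *Gli1 HHIPCKO* cells (35.5 to 61.4). *Iglc2* was at 78.3 and 261 CPM (log2 1.74, 1.04 to 2.45), a ratio that was 0.49 with the clusters weighted equally and 0.97 without cells that also carried other lineages. *Iglc1* was at 1.50 (0.64 to 2.36) and *Iglc3*, the lambda constant gene with most UMIs, at 0.51 (−0.19 to 1.17). *Iglv1*, a lambda variable gene, had 37 UMIs in 14 control cells and 267 in 9 *Gli1 HHIPCKO* cells (4.23, 3.73 to 4.77). The surrogate light chain gene *Igll1* can share reads with the lambda constant genes. The lambda genes are near copies on chromosome 16, *Iglc1* from 19061618 to 19062071, *Iglc2* from 19198396 to 19200351 and *Iglc3* from 19065230 to 19065681, so which of them a read came from is uncertain. *Igkc* lies on chromosome 6 from 70726435 to 70726966.

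Across genes, few differed by 2-fold or more between the mice. Over all chosen cells, 4564 genes had at least 50 UMIs; 79 of them (1.73%) were higher in *Gli1 HHIPCKO* by 2-fold or more and 150 (3.29%) lower, with a median log2 ratio of 0.01. In B-like cells 2000 genes had at least 50 UMIs; 39 (1.95%) were higher and 81 (4.05%) lower, with a median of −0.08. The balance turned in some settings: 12 were higher and 8 lower with 4 of the 5 genes required, and 9 and 5 with cells thinned to 1000 UMIs. The counting interval lay off 0 for 79 and 141 of those in all chosen cells, and for 39 and 79 of those in B-like cells. Mast/basophil-like cells were too few in *Gli1 HHIPCKO* for a comparison over all genes.

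Genes of MHC class II presentation were higher in B-like cells of the *Gli1 HHIPCKO* mouse. All 4 of the 7 listed genes with at least 50 UMIs there were higher by 2-fold or more, as were 1.95% of all genes. Their median log2 ratio was 1.76 against −0.08 over all genes. Without its top cell *H2-Ab1* was at 0.91 (0.43 to 1.39), below 2-fold. *Cd74*, the invariant chain that guides class II molecules to the endosome, was at 1965 and 5742 CPM (log2 1.55, 1.41 to 1.69). *H2-Aa*, an alpha chain, was at 235 and 924 CPM (1.98, 1.59 to 2.36), and the beta chain genes *H2-Ab1* and *H2-Eb1* had log2 ratios of 1.27 (0.82 to 1.71) and 2.46 (1.76 to 3.19). On chromosome 17 *H2-Ab1* runs from 34257689 to 34269419, *H2-Aa* from 34282744 to 34287823 and *H2-Eb1* from 34305867 to 34316674, and reads of H2 genes can be shared between relatives.

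Whether the make-up of the B-like cells accounts for the class II difference was not tested. Cluster 11, the one with the highest level (50493 CPM for the whole list), was 2.90% of control B-like cells (interval 0.795 to 7.26) and 11.3% of *Gli1 HHIPCKO* B-like cells (4.66 to 21.9), a log2 ratio of 1.96 whose interval (−0.01 to 4.18) includes 0. Within clusters the levels lay closer together, at 15082 and 16578 CPM in cluster 3, 823 and 930 CPM in cluster 1 and 39402 and 57017 CPM in cluster 11. With the clusters weighted equally in both libraries the log2 ratio was 0.24 for *Cd74*, 0.54 for *H2-Aa*, 0.20 for *H2-Ab1* and 0.85 for *H2-Eb1*. At least 3 class II genes were found in 16.7% of B-like cells of the control and 21.0% of those of *Gli1 HHIPCKO*. Epithelial comparison cells held these genes at 8917 and 9401 CPM and mesenchymal ones at 82.1 and 66.4 CPM, so epithelial RNA in the droplet carries them too, and its part here was not tested.

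In the B cell list none of the 8 genes with at least 50 UMIs passed 2-fold, with a median of 0.27. As 1.95% of all genes were higher and 4.05% lower, a count of 0 says little about the list. *Igkc* and *Pax5*, the factor that keeps B cell identity (−0.09, −0.98 to 0.74), lay below 0. *Ms4a1* was at 228 and 440 CPM (log2 0.95, 0.48 to 1.42), which was −0.12 with the clusters weighted equally, and *Ly6d*, a marker of B lineage commitment, had a log2 ratio of 0.74 (0.54 to 0.93). *Cd79a* and *Cd79b*, the signalling chains of the B cell receptor, had log2 ratios of 0.40 (0.23 to 0.57) and 0.15 (−0.07 to 0.35), and *Ighm* 0.16 (−0.12 to 0.44). Outside that list *Ly86*, which pairs with a toll-like receptor homologue on B cells, was past 2-fold at 1.66 (0.82 to 2.53), and 0.66 with *Ptprc* required. *Ccr7*, the receptor that draws lymphocytes to lymph nodes, was at 1.02 (0.31 to 1.73), −0.21 in the set that needs 4 of the 5 genes and 0.50 without the cell holding most of its UMIs.

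Some cell cycle genes were lower in B-like cells of the *Gli1 HHIPCKO* mouse, though most did not pass 2-fold. Of 13 listed genes with at least 50 UMIs, 4 were lower by 2-fold or more and none higher, with a median of −0.80. Among all genes 4.05% were lower and 1.95% higher. *Ube2c*, which helps the anaphase complex to mark cyclins, was at 347 and 102 CPM (log2 −1.77, −2.61 to −1.02), and *Top2a*, which untangles replicated DNA, at 228 and 70.1 CPM (−1.70, −2.75 to −0.79). *Cdk1*, the mitotic kinase, had a log2 ratio of −1.23 (−2.43 to −0.20) and *Tyms*, the enzyme of thymidylate synthesis, −1.14 (−2.44 to −0.05). *Mki67*, the usual marker of dividing cells, was at 254 and 229 CPM (−0.15, −0.74 to 0.41). In the wider set that needs 2 of the 5 genes the ratios were −0.05 for *Ube2c* and −0.32 for *Top2a*, and with *Ptprc* required *Tyms* was at 0.10.

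The number of dividing cells gave the same direction within wide intervals. At least 3 cell cycle genes were found in 41 of 138 control B-like cells (29.7%, interval 22.2 to 38.1) and 12 of 62 *Gli1 HHIPCKO* ones (19.4%, 10.4 to 31.4). After drawing 1000 UMIs from each cell, for which 13 control and 3 *Gli1 HHIPCKO* B-like cells had too few, *Top2a* was found in 12.8% and 1.69%, and *Mki67* in 13.6% and 8.47%. The shares at full depth were 21.0% and 8.06% for *Top2a* and 22.5% and 14.5% for *Mki67*, at median depths of 1954 and 1710 UMIs. Mesenchymal comparison cells had thinned shares of 1.83% and 0.534% for *Mki67* and 0.234% and 0.193% for *Top2a*, at median depths of 2931.5 and 3067 UMIs, with 276 and 440 cells left out. Cluster 9, the dividing cluster led by histone genes, was 12.3% of B-like cells in the control and 6.45% in *Gli1 HHIPCKO* (log2 −0.93, −2.96 to 0.68). Cluster 7, also dividing, was 12.3% and 9.68% (−0.35, −1.98 to 1.06).

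Among the 15 lowest ratios in B-like cells, genes outside the lists belonged to several processes. *Hells*, a chromatin remodeller needed for DNA methylation, had a log2 ratio of −2.02 (−3.71 to −0.71), *Kmt5a*, which methylates histone H4, −2.29 (−4.22 to −0.85), and *Atad2*, a chromatin reader, −1.79 (−3.30 to −0.57), beside *Chmp5*, of the membrane-sorting ESCRT machinery, at −1.79 (−3.48 to −0.46) and *Rexo2*, a mitochondrial exonuclease gene, at −1.65 (−3.16 to −0.42). Also among the lowest were *Dnmt1*, a DNA methyltransferase gene, at −1.545 (−2.43 to −0.76), and the histone genes *Hist1h2bk*, *Hist1h3i* and *Hist2h3b* at −1.67, −1.64 and −1.54. *Hist1h2bk* was also a leading gene of the dividing cluster 9. In the set that needs 2 of the 5 genes *Kmt5a* was at −0.39, *Atad2* at −0.45 and *Hist1h3i* at 0.11. *Rag1* was at 130 and 63.7 CPM (−1.02, −2.17 to −0.03), and at −0.86 (−2.01 to 0.14) without the cell with most of its UMIs. Thinned, it was found in 16.0% of the B-like cells of the control and 8.47% of those of *Gli1 HHIPCKO*, against 0.0974% and 0.0296% of mesenchymal comparison cells, and unthinned in 20.3% and 14.5%. Of the earliest genes, *Vpreb1* had a log2 ratio of 0.46 and *Dntt* 0.58, which were −0.02 and −0.88 without the cell holding most of their UMIs, and *Igll1*, the other surrogate light chain gene, 0.06. *Vpreb2*, with 12 and 18 UMIs, was at 1.97 (0.83 to 3.15), and at 1.43 (0.15 to 2.71) without its top cell.

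Stress and signal response genes in B-like cells differed by list. Of 10 immediate early genes with at least 50 UMIs none passed 2-fold (median 0.29), where 1.95% of all genes were higher and 4.05% lower. *Junb*, a subunit of the AP-1 factor, had the largest ratio at 0.82 (0.49 to 1.14). It was at 1.01 (0.67 to 1.35) without the control cell holding most of its UMIs. Of 4 genes induced by glucocorticoids 1 was higher (median 0.64): *Ddit4*, an inhibitor of mTOR signalling, was at 93.0 and 249 CPM (1.42, 0.74 to 2.10), and *Tsc22d3*, the glucocorticoid-induced leucine zipper, had a log2 ratio of 0.78 (0.41 to 1.15). *Ddit4* was at 0.97 without the cell with most of its UMIs. The interferon-inducible gene *Ifi27l2a*, the 1 interferon gene with at least 50 UMIs, was at 188 and 491 CPM (1.38, 0.91 to 1.86), and at 0.86 in the set that needs 2 of the 5 genes. Among 2 cytokine genes and 1 clock gene with enough UMIs, none passed 2-fold.

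**Figure D3:**
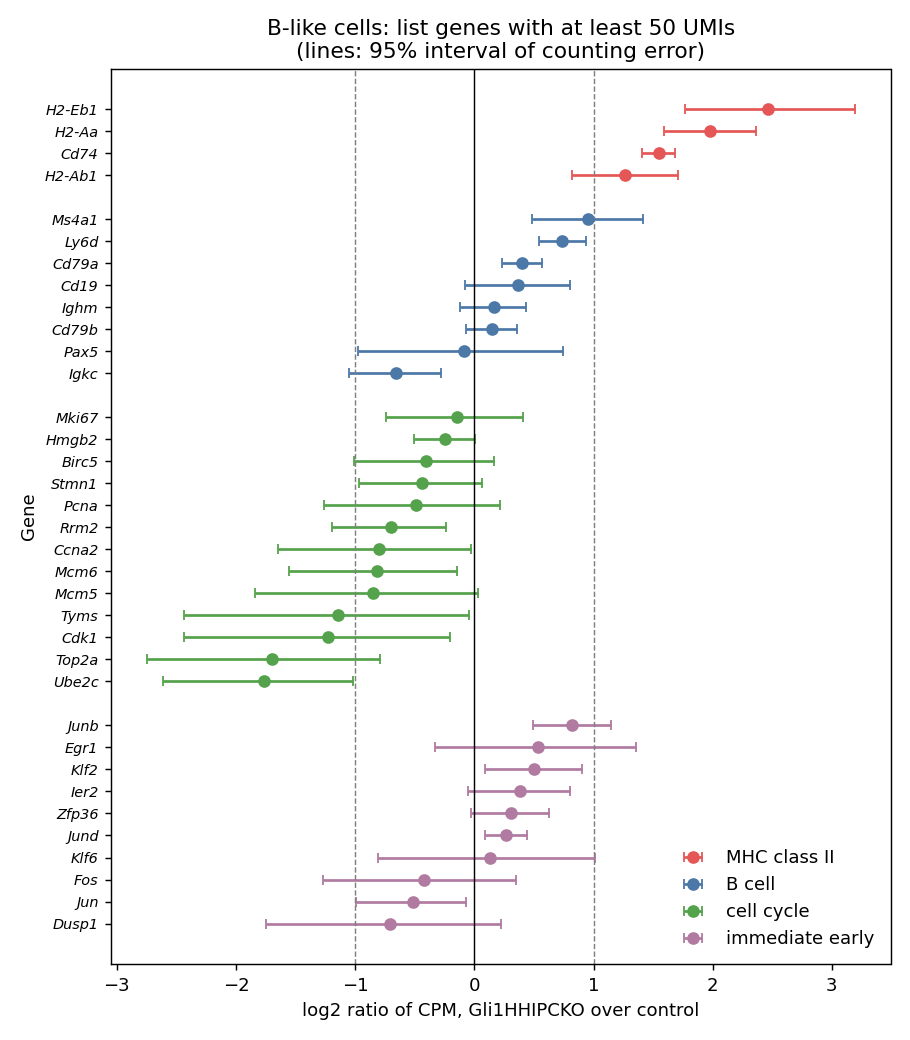
Log2 ratio of CPM in *Gli1 HHIPCKO* over control B-like cells (horizontal axis), as points with 95% counting intervals and dashed lines at 2-fold. Genes (vertical axis) are those of the MHC class II, B cell, cell cycle and immediate early lists with at least 50 UMIs. Other lists, the erythroid one among them, are not shown. The 4 MHC class II genes lie at 1.27 to 2.46 and the 13 cell cycle genes have a median of −0.80.

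The mast/basophil-like cluster had more cells with a basophil protease than with mast cell proteases. *Hdc*, the enzyme that makes histamine, was found in all 68 cells, with a level of 4654 CPM in those of the control and 4978 CPM in those of *Gli1 HHIPCKO*. *Mcpt8*, a protease gene of mouse basophils, was found in 40 of the 68 cells, whereas any of the mast cell protease genes *Cma1*, *Mcpt4* and *Tpsb2* was found in 3, 1 control and 2 *Gli1 HHIPCKO* cells, and no cell had both *Cma1* and *Mcpt8*. Those 3 cells held many copies: *Mcpt4* had 134 control and 167 *Gli1 HHIPCKO* UMIs and *Cma1* 89 and 119, against 113 and 5 of *Mcpt8*. *Ms4a2*, the beta chain of the IgE receptor, was found in 40 of 58 and 7 of 10 cells. *Cpa3*, a carboxypeptidase of both cell types, was found in 14 and 3 cells, and *Kit*, the stem cell factor receptor of mast cells, in 2 and 2. *Mcpt8* lies on chromosome 14 from 56082166 to 56085273, near *Mcpt4* (56059629 to 56062313) and *Cma1* (55941451 to 55944675). Of these, *Hdc*, *Mcpt4* and *Tpsb2* and the interleukin 4 gene below were added after their values had been seen.

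These cells held type 2 cytokine and chemokine transcripts. *Il4*, whose product drives IgE switching, was found in 45 of the 58 cells of the control and 4 of the 10 of *Gli1 HHIPCKO*, and *Il13*, whose product acts on airway epithelium and mucus, in 23 and 5. At least 1 of the pair was found in 55 of 68 cells (80.9%) and both in 22. Neither was found in the 200 B-like cells, whose median depths were 1954 and 1710 UMIs against 2207 and 2349 here, while *Il4* was found in 19 and *Il13* in 12 of the 111 cells of unnamed clusters. *Il4* was at 1076 and 349 CPM (log2 −1.62, −2.86 to −0.61). It was at 0.02 when *Ptprc* had to be among the genes found, which left 1 *Gli1 HHIPCKO* cell in the class. *Il13* was at 364 and 480.4 CPM (0.40). Both lie on chromosome 11, *Il4* from 53602982 to 53618669 and *Il13* from 53631324 to 53634702.

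Chemokine genes were the most abundant signals of the cluster. *Ccl4*, which draws lymphocytes and macrophages, was at 26130.1 and 20874 CPM, *Ccl3*, its close relative, at 7353 and 5066 CPM and *Ccl6*, a myeloid chemokine, at 6231 and 5502 CPM. *Csf1*, the growth factor of macrophages, was at 3237 and 2751 CPM, *Osm*, a cytokine of the interleukin 6 family, at 2160.5 and 2839 CPM, and *Il6* at 303 and 611 CPM. *Ccl6*, *Ccl3* and *Ccl4* lie in 1 stretch of chromosome 11, from 83587882, 83647844 and 83662584. Over all chosen cells, 5 of 10 cytokine and chemokine genes with at least 50 UMIs were lower and 2 higher in *Gli1 HHIPCKO* (median −0.57). Among all genes 3.29% were lower and 1.73% higher. The 2 higher genes of the list, the chemokine genes *Ccl2* and *Ccl5*, were each found in 1 *Gli1 HHIPCKO* cell. Among the lower genes of the list were *Ccl3*, *Ccl4*, *Ccl6* and *Csf1*, at −1.21, −1.13, −1.08 and −1.18. Within the mast/basophil-like cells the same 4 genes had log2 ratios of −0.54, −0.32, −0.18 and −0.23, beside the smaller number of these cells.

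The few *Gli1 HHIPCKO* mast/basophil-like cells differed from the control ones in identity genes, in both directions, and in some immediate early genes. *Gata2*, a transcription factor of both lineages, was at 1039 and 480.4 CPM (log2 −1.11, −2.15 to −0.23), which was −0.06 with *Ptprc* required and 1 *Gli1 HHIPCKO* cell left, and *Mcpt8* at 857 and 218 CPM (−1.97, −3.62 to −0.71). Higher were *Cpa3* (1.41, 0.65 to 2.13), which was −2.25 without cells carrying other lineages, *Kit* (3.16, 1.85 to 4.55), which was 1.55 (−0.60 to 3.39) without its top cell, and *Cma1* (2.95, 2.54 to 3.36), the last found in 1 control and 2 *Gli1 HHIPCKO* cells. *Fos*, an AP-1 subunit, was at 1478 and 3974 CPM (1.43, 1.05 to 1.79), *Egr1*, a growth signal response factor, at 1584 and 5328 CPM (1.75, 1.42 to 2.08), and *Dusp1*, a phosphatase that shuts off MAP kinases, at 3199 and 8734 CPM (1.45, 1.20 to 1.70). *Klf2* and *Klf6*, zinc finger factor genes, were at 1.48 and 1.14, which were 0.94 and 0.54 without cells carrying other lineages. With *Ptprc* required *Klf6* turned to −0.15. The listed immediate early genes *Jun*, *Junb*, *Jund*, *Fosb*, *Ier2* and *Zfp36* did not pass 2-fold, at 0.11, 0.81, 0.76, 0.68, 0.55 and 0.49. These values rest on 10 *Gli1 HHIPCKO* cells. *Nr4a1*, an orphan nuclear receptor gene, had a log2 ratio of 2.63 and 0.80 without cells carrying other lineages, and *Tnf* 2.66, which was 0.35 without the cell with most of its UMIs. Immediate early genes also respond to tissue dissociation, and the part of handling was not tested.

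The unnamed clusters were of 2 kinds. Clusters 4, 5, 8 and 12 (88 cells, 22.8% of those chosen in the control and 24.3% in *Gli1 HHIPCKO*) joined leukocyte genes with those of epithelium or mesenchyme. All 31 cells of cluster 4 had at least 3 epithelial genes, with *Cxcl15*, a lung epithelial chemokine, 92.0-fold above the other chosen cells, and all 21 of cluster 8 and 8 of cluster 12 had at least 3 mesenchymal genes. Of the 88 cells, 49 (55.7%) also had at least 3 B cell genes and 14 (15.9%) at least 3 mast cell and basophil genes. Their median depth was 9415 UMIs per cell in cluster 4 and 4708 to 5122.5 in the others, against 1292 to 5684 in the B-like clusters. Whether they were droplets with several cells was not tested.

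Cluster 6 (14 and 9 cells) brought together the rare T cells and macrophages. Of its 23 cells 7 had at least 3 T cell genes, 6 at least 3 interstitial macrophage and 3 at least 3 alveolar macrophage genes, none had T cell and macrophage genes together, and 4 matched no list. *Csf1r*, the receptor for the macrophage growth factor, was 287-fold and *Cd3g*, a chain of the T cell receptor complex, 123-fold above the other chosen cells.

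Some genes of other lineages differed between the mice over all chosen cells. *Fn1*, the matrix protein fibronectin, was at 279 and 938 CPM (log2 1.75, 1.52 to 1.98), with 247 of its 277 control and 315 of its 354 *Gli1 HHIPCKO* UMIs in cluster 8. *Igf1*, a growth factor of stromal cells, was at 29.2 and 135 CPM (2.21, 1.52 to 2.92). *Acta2*, smooth muscle actin, had a log2 ratio of 1.78 (1.39 to 2.17), and −0.08 in the set that needs 2 of the 5 genes. *Scgb1a1*, the secretory protein of club cells, was at 6773 and 98.0 CPM (−6.11), with 58.5% of its control UMIs in 1 cell of cluster 4, and −0.28 without cells carrying other lineages. Of 8 mesenchymal genes 2 were higher and none lower (median 0.49), and of 7 epithelial genes 1 was lower and none higher (median −0.66). Among all genes 1.73% were higher and 3.29% lower. With at least 3 epithelial, mesenchymal or endothelial genes, 28.3% of chosen cells in the control and 30.8% in *Gli1 HHIPCKO* carried other lineages.

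Surfactant RNA was found in nearly all of the cells. *Sftpc*, the surfactant protein C gene of alveolar type 2 cells, was found in all 138 control B-like cells and in 98.4% of those of *Gli1 HHIPCKO*, and thinned to 1000 UMIs in 90.4% and 84.7%. Mesenchymal comparison cells, which should lack it, gave 81.7% and 68.1% thinned and 99.3% and 96.3% unthinned. The 8 surfactant and secretory genes together were at 3521 and 3110.1 CPM in B-like cells, 2689 and 1896 CPM in mesenchymal and 353049 and 333457 CPM in epithelial comparison cells. The level in B-like cells was thus above that of mesenchymal cells in both libraries and far below that of epithelial cells.

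The difference in *Hbb-bs* between the B-like cells of the mice rested on 1 cell. The gene itself was found in 99 of the 138 cells of the control and 38 of the 62 of *Gli1 HHIPCKO*. *Hbb-bs*, a beta globin gene, was at 384 and 12141 CPM (log2 4.98), with 97.0% of the *Gli1 HHIPCKO* UMIs in 1 cell and a ratio of −0.02 without it. All 4 erythroid genes with at least 50 UMIs were past 2-fold there (median 5.20), where 1.95% of all genes were higher. Each had between 96.3% and 97.2% of its *Gli1 HHIPCKO* UMIs in 1 cell of cluster 3. Without its top cell *Hba-a1*, an alpha globin gene with 6 and 188 UMIs, was at 1.64 (−0.16 to 3.49). *Hba-a2* was then at 0.10 and *Hbb-bt* at 0.36, so the count and the median rested on that cell. The alpha globin genes are near-identical copies of each other, as are the beta globin genes, and reads can be shared within each pair.

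The genes that the model acts on had few UMIs in the leukocytes. *Hhip* was found in 0 of 138 control and 1 of 62 *Gli1 HHIPCKO* B-like cells and in no mast/basophil-like cell, and *Gli1* in none of either class. At this depth that does not show that the genes were silent. Over all chosen cells *Hhip* was at 83.6 and 34.4 CPM (log2 −1.28, −2.25 to −0.43), found in 8.09% and 7.48% of cells, against 42.3% and 28.8% of mesenchymal comparison cells. Thinned, *Hhip* was found in 3.98% and 4.81% of chosen cells and in 28.4% and 13.8% of mesenchymal ones. The sources name both a kit that counts the 5′ end and one that counts the 3′ end of transcripts, so whether the counted end lies in the deleted part of *Hhip* is unclear. *Igf1* was found in 0 and 2 B-like cells. Of 7 Hedgehog and IGF genes with at least 50 UMIs over all chosen cells, 2 were higher and 2 lower (median 0.01). The shares among all genes were 1.73% higher and 3.29% lower. In B-like cells no gene of the list reached 50 UMIs.

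None of 9 cell cycle inhibitor and senescence genes passed 2-fold over all chosen cells (median −0.13), nor any of 6 in B-like cells (median 0.00). Among all genes 1.73% were higher and 3.29% lower over all chosen cells, and 1.95% and 4.05% in B-like cells. At those shares a count of 0 says little about the list. Counting intervals over all chosen cells lay off 0 for *B2m* (0.48, 0.22 to 0.74), *Cdkn1c* (−0.80, −1.60 to −0.07) and *Cdkn2d* (−0.43, −0.86 to −0.01). *Cdkn1a*, which encodes the inhibitor p21, was at 164 and 193 CPM (log2 0.24, −0.18 to 0.64). Thinned to 1000 UMIs it was found in 9.96% of the chosen control cells and 9.62% of the *Gli1 HHIPCKO* ones, against 6.90% and 18.7% of epithelial and 8.90% and 16.8% of mesenchymal comparison cells, and unthinned in 26.1% and 28.0% of the chosen cells. *Cdkn2a*, which encodes p16, had 0 UMIs in the chosen cells. In B-like cells *Cdkn1a* was at 113 and 63.7 CPM (−0.82, −1.97 to 0.19), found in 18.8% and 8.06% of cells and thinned in 6.40% and 3.39%. In mast/basophil-like cells *Cdkn1a* was found in 21 of 58 and 9 of 10 cells, and thinned in 18.2% (interval 9.08 to 30.9) and 40.0% (12.2 to 73.8). *Cdkn1a* lies on chromosome 17 from 29090976 to 29100727.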

How the data were processed

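The authors deposited 10x Genomics matrices of UMI counts per gene and cell for 1 control and 1 *Gli1 HHIPCKO* library, aligned to mm10 with Cell Ranger 3.1.0 per the processing notes and 6.1.0 per the file headers. The deposited counts were used as raw counts of 32285 genes.

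Cells were chosen by the 5-gene rule, and the members and lists were chosen with earlier results of these data known. Chosen cells of both libraries were scaled to 10000 UMIs, log-transformed and clustered together without integration (1000 variable genes, 15 principal components, 10 neighbours, Leiden resolution 1, seed 1). Levels were pooled UMIs per 1000000 (CPM), compared as log2 ratios over genes with at least 50 UMIs and called at 2-fold. A zero was replaced by 3 counts for a bound. The ratios and their intervals were tested on simulated pooled counts with counting error only. That simulation held no single cells, so it could not show how the intervals hold where UMIs gather in few cells.

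Genes named are those of the 31 lists with at least 20 UMIs, the 10 leading genes of each cluster in at least 25% of its cells, the 15 highest and 15 lowest ratios among genes detected in 10% or more of either library's chosen cells, and the 20 leading genes of the chosen cells over other cells. B cell development and basophil genes were added after their values were seen.

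Gene positions were taken from GENCODE vM21 by gene identifier. Computation used igraph 0.11.9, leidenalg 0.10.2, scikit-learn 1.9.0, scipy 1.17.1, pandas 2.3.3, numpy 2.4.6 and matplotlib 3.10.9 under Python 3.11.15. Alternatives varied the number of genes required, the cell filter, depth, cells of other lineages, clustering, scaling, weighting and the UMI limit.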

Additional observations from a re-analysis of the deposited data

Results flagged for a closer look

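For 2 listed genes the log2 ratio between the mice had opposite signs in the B-like and the mast/basophil-like cells, with a counting interval off 0 in both classes. The log2 ratio of *Lcp1*, an actin-bundling protein gene of leukocytes, was 0.66 (0.10 to 1.22) in B-like and −1.02 (−1.74 to −0.38) in mast/basophil-like cells. The log2 ratio of *Hbb-bs* was 4.98 (4.75 to 5.23) in B-like and −5.88 (−7.51 to −4.66) in mast/basophil-like cells. In each class at least 96.8% of the *Hbb-bs* UMIs of the higher library were in 1 cell, and without that cell the ratios were −0.02 and −0.99. The difference between the classes was not tested, since there was 1 mouse per group.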

How the results depend on the processing

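Counting depth limits all ratios: B-like genes rest on 138 and 62 cells, and mast/basophil-like values on 58 and 10. Of 1282 values of 98 named gene ratios under 17 settings, 1083 stayed within the counting interval of the first value, 185 moved out of it and 14 turned in direction from a ratio that had been at 2-fold or more. Smaller ratios that crossed 0 are counted with the first 2 kinds. The 11 leading results are the shares of cells and the counts of genes at 2-fold, and not each had a value under every setting. Of their values, 68 stayed and 49 moved. The cause was not tested. Thinned to 1000 UMIs, no cluster was mast/basophil-like, and single genes under 20 UMIs gave no value under a setting. Leaving out the cell with most UMIs of a gene was chosen after seeing the data. Without the cell filter, at a 5% mitochondrial limit, at resolution 2, and with the total, centring or cluster weights altered, no available value of a leading result moved. Single gene ratios could still move there: with the clusters weighted equally the MHC class II genes fell below 2-fold, as given above. With 2 of the 5 genes required, the shares were 4.51% and 1.67% of filtered cells, B-like cells 57.7% of control chosen cells, mast/basophil-like cells 12.2% and 3.96%, and 64 genes (not 39) were higher in B-like cells. *Acta2* was at −0.080 over all chosen cells, *Hist1h3i* at 0.11 in B-like cells and *Cpa3* at −2.25 in mast/basophil-like cells. With 4 required, the shares were 0.971% and 0.347%, B-like cells 31.1% of control chosen cells and mast/basophil-like cells 38.7% and 16.7%. In B-like cells 12 genes were higher and 8 lower (not 39 and 81), *Hbb-bs* was at −0.29 and *Ccr7* at −0.21. With *Ptprc* required, the shares were 0.934% and 0.504%, a log2 ratio of −0.89. B-like cells were 47.5% of *Gli1 HHIPCKO* chosen cells, and mast/basophil-like cells 10.8% and 1.64%, the latter 1 cell. Over all chosen cells 47 genes were higher and 57 lower (not 79 and 150), and in B-like cells 11 and 24. *Tyms* was at 0.10 in B-like cells, and *Il4* at 0.024 and *Klf6* at −0.15 in mast/basophil-like cells. With cells thinned to 1000 UMIs, the shares were 1.07% and 0.447%, and B-like cells 41.8% of control chosen cells. The counts of genes were 16 higher and 44 lower over all chosen cells and 9 and 5 in B-like cells, and *Hbb-bs* was at −0.47 in B-like cells. Without cells that carried other lineages, the shares were 1.76% and 0.586%, B-like cells 66.1% and 74.6% and mast/basophil-like cells 27.6% of control chosen cells. *Hbb-bt* was at −0.21 in B-like and *Cpa3* at −2.25 in mast/basophil-like cells. At resolution 0.5, B-like cells were 44.5% of control chosen cells and 46 genes were lower in them. With cells assigned one by one, mast/basophil-like cells were 14.7% of control chosen cells, and *Hbb-bs* was at −0.044 and *Hbb-bt* at −0.014 in B-like cells. Without the cell with most of its UMIs, *Hbb-bs* was at −0.017. With means over cells, 145 genes were higher and 243 lower over all chosen cells, and 128 lower in B-like cells. With at least 20 UMIs, the counts were 312 and 546 over all chosen cells and 198 and 409 in B-like cells, and with at least 100 UMIs 28 and 39, and 14 and 23, as more or fewer genes were tested.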
